A study of Mus musculus with 3 samples.

Results

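The genes named Zfp600 to Zfp999 (mouse zinc finger protein genes numbered in this range) were read in 3 RNA-seq libraries of E14 mouse ESCs. Members were taken by name alone, from the gene column of both deposited tables, which gave 138 genes of 23953. Each library stands for 1 condition. WT is the control library. The library labelled Tam came from *Oct4* DE -/- cells, in which both copies of the distal enhancer of *Oct4* were flanked by loxP sites, after 48 h of 4-OH tamoxifen, and the library labelled DoxTam came from the same kind of cells after 48 h of 4-OH tamoxifen together with doxycycline. Tamoxifen releases CreERT2, a Cre recombinase that removes the floxed enhancer, and doxycycline switches on transgenic mouse *Oct4* (mOct4). The constructs were delivered by lentivirus and the lines were grown from clones, so a clone and its genotype cannot be told apart. The labels list the doxycycline and tamoxifen inducible constructs for all 3 libraries, WT included, and the sources used here do not say whether WT was the parental line or untreated floxed cells.

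Most genes with these symbols encode C2H2 zinc finger proteins, in which a row of fingers reads DNA sequence. Many also carry a KRAB domain near the start of the protein. This domain recruits the co-repressor TRIM28 (KAP1), which in turn brings the histone methyltransferase SETDB1 and heterochromatin proteins, and in ESCs this machinery silences endogenous retroviruses and other repeats and protects imprinted regions. KRAB zinc finger genes arose by repeated local duplication, so they lie in clusters of close copies, and their transcripts are rich in A and T. *Oct4* itself, encoded by *Pou5f1*, is a transcription factor of the POU family that ESCs need to remain pluripotent.

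Levels were deposited in FPKM, which counts fragments per kilobase of transcript relative to the library's total. The depth, read from the lowest levels, was 0.483 of that of WT in Tam and 0.577 in DoxTam, and 1 fragment on 1 kb was worth 0.0841 FPKM in WT, 0.174 FPKM in Tam and 0.146 FPKM in DoxTam. A member such as *Zfp758* thus rested on about 83 fragments in WT, 127 in Tam and 48 in DoxTam. *Pou5f1* was at 664 FPKM in WT, 529 FPKM in Tam and 458 FPKM in DoxTam. The lowest of these was in the library labelled with induced mOct4, against what that label says. In Tam the level was lower than in WT, but most of it remained. The paper reports, by qPCR, a nearly complete loss of *Oct4* expression in *Oct4* DE -/- lines given tamoxifen alone. No such loss was seen in the Tam library, and whether the enhancer was removed in these libraries was not tested. Tam and DoxTam below stand for the libraries so labelled. All 8 listed ESC markers were at 1 FPKM or more in every library. Markers of other cell types had summed levels of 26.6, 33.5 and 28.0 FPKM in WT, Tam and DoxTam for 8 trophectoderm genes (of which *Cdx2* and *Gata3* were higher in Tam than in WT, and in DoxTam *Eomes* was higher and *Tfap2c* lower than in WT), 3.51, 3.17 and 2.74 FPKM for 6 endoderm genes, and 5.31, 2.95 and 2.92 FPKM for 6 fibroblast genes, of which *Thy1* was lower than WT in both treated libraries and *Col3a1*, *Postn* and *Twist2* were at or near 0. The 10 listed genes of the 2-cell-like state summed to 27.6, 22.9 and 32.2 FPKM, and 4 *Zscan4* genes among them were higher in DoxTam than in Tam. The part of these cell types in the results was not tested. Since each condition was read once, no difference could be checked against replicates, and each describes a pair of libraries.

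Zinc finger genes of this range were active at low to moderate levels in WT. Of 138 members, 28 were at 10 FPKM or more, 86 lay from 1 to 10 FPKM, and 24 were below 1 FPKM, 4 of them listed at 0. The median member was at 4.03 FPKM in WT, 5.12 FPKM in Tam and 4.93 FPKM in DoxTam. The 195 genes named Zfp1 to Zfp599 had medians of 4.75, 5.73 and 5.22 FPKM in the same order. The members with the highest WT levels per length were *Zfp961* at 67.9 FPKM, *Zfp710* at 60.7 FPKM, *Zfp740* at 44.0 FPKM and *Zfp809* at 36.6 FPKM. They were followed by *Zfp936* at 30.8 FPKM, *Zfp622* at 26.8 FPKM, *Zfp664* at 26.2 FPKM and *Zfp652* at 25.6 FPKM, and these last 3 neighbours differed by too little to be ordered without replicates. ZFP809 is the KRAB zinc finger protein through which ESCs recognise the primer binding site of murine leukaemia viruses, and ZFP622 takes part in the maturation of the large ribosomal subunit. In all 3 libraries 113 members reached 1 FPKM, and 17 reached it in none, among them *Zfp703*, a co-repressor gene of the NET family, *Zfp711*, an X-linked gene, and *Zfp677*.

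The members' sequences bear on how they can be read. A coding sequence was found for 137 members, which held a median of 10 C2H2 fingers (0 to 33), and 79 of them carried the pattern of the KRAB domain. The GC content of their transcripts had a median of 44.2% (33.8% to 68.3%), against 49.6% over all genes. Close copies can exchange reads. Of the members, 74 shared no stretch of 50 bases with a transcript of another gene, whereas 16 shared over 10% of such stretches, among them *Zfp600* (84.4%), *Zfp932* (45.1%), *Zfp936* (26.6%), *Zfp738* (25.7%), *Zfp959* (23.6%) and *Zfp931* (22.2%), whose levels are uncertain. The loci of 8 members overlap another locus of the tables, *Zfp653*, *Zfp708*, *Zfp710* and *Zfp750* among them.

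The first comparison sets the library labelled Tam beside WT. Where the cells of WT and Tam differed in clone or genotype as well as in tamoxifen, these cannot be told apart. Folds are the log2 ratio of FPKM + 1, which understates the change of low genes, and genes that reached 1 FPKM in either library count as higher or lower from 1.5-fold on. Of 119 members measured in Tam and WT, 18 were higher in Tam and 0 were lower. This is 15.1% of the members, beside 6.98% of 12705 genes higher, 3.59% lower and 10.6% either way. Among Zfp1 to Zfp599, 8 of 173 measured genes were higher and 1 was lower. The median log2 fold was 0.17 for the members, 0.11 for Zfp1 to Zfp599 and 0.02 for all genes, and 80 of the 119 members lay above 0.

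*Zfp951*, a KRAB zinc finger gene on chromosome 5 (mm9, 105242186 to 105289087), had the largest fold. It was at 6.07 FPKM in WT, 25.6 FPKM in Tam and 9.54 FPKM in DoxTam. Tam thus stood far above the other libraries, with a log2 fold of 1.91 against WT and a ratio of 4.21 (95% interval 3.28 to 5.43, from approximate fragment numbers and for counting error only). *Zfp758*, on chromosome 17, was at 2.35 FPKM in WT, 7.42 FPKM in Tam and 2.37 FPKM in DoxTam, a log2 fold of 1.33 against WT. *Zfp600*, on chromosome 4, was at 11.2, 23.9 and 12.4 FPKM in the same order, a log2 fold of 1.03, and its closest copy by shared sequence is *Gm13138*. *Zfp944* was at 4.88, 10.8 and 6.78 FPKM, a log2 fold of 1.01. The next members by fold were *Zfp709* (1.00), *Zfp654* (0.96), *Zfp820* (0.95) and *Zfp946* (0.93). All of these except *Zfp654* carry the KRAB pattern. At the other end of the members *Zfp931*, a KRAB zinc finger gene on chromosome 2, was at 19.7 FPKM in WT, 13.1 FPKM in Tam and 11.7 FPKM in DoxTam. Its log2 fold of -0.56 in Tam did not reach 1.5-fold, and the next lowest values were those of *Zfp629* (-0.49) and *Zfp688* (-0.43). Just inside the threshold lay *Zfp959* (0.59), and just outside it *Zfp809*, at 55.4 FPKM in Tam (0.58).

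GC content moved with these folds, and its part in them was not tested. In the decile of genes poorest in G and C the median log2 fold of all genes was 0.24, in the richest decile it was -0.19, and 48 of the 119 members belonged to the poorest, where their own median was 0.44. With the trend over GC content subtracted, 10 members were higher (8.40%), 1 was lower (*Zfp931*, -0.93), and the median was 0.08, beside 5.61% of all genes higher and 2.02% lower. The 10 were *Zfp951* (1.72), *Zfp758* (0.98), *Zfp709* (0.76), *Zfp944* (0.75), *Zfp600* (0.69), *Zfp672* (0.66), *Zfp820* (0.63), *Zfp946* (0.62), *Zfp936* (0.60) and *Zfp879* (0.59). Of these, *Zfp879* passed the filter at 1 FPKM only through Tam.

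The second comparison sets the library labelled with tamoxifen and doxycycline beside WT. Of 117 members measured in DoxTam and WT, 13 were higher and 2 were lower. These are 11.1% and 1.71% of the members, beside 4.12% of 12384 genes higher, 5.78% lower and 9.9% either way. Among Zfp1 to Zfp599, 11 of 171 were higher and 2 were lower. The median log2 fold was 0.21 for the members, 0.12 for Zfp1 to Zfp599 and -0.0028 for all genes. When each library was rescaled to the same total FPKM, which moved the median of all genes by 0.32, the split of the members was 51 higher and 0 lower, beside 22.1% of all genes higher and 1.79% lower. Small RNA genes held 62.8% of the summed FPKM in WT, 57.4% in Tam and 52.1% in DoxTam. With them left out of the total, 12 members were higher and 2 lower, with a median of 0.21. Of all genes 4.05% were then higher and 5.85% lower.

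*Zfp936*, a KRAB zinc finger gene on chromosome 7, was at 30.8 FPKM in WT, 58.1 FPKM in Tam and 63.3 FPKM in DoxTam. Both treated libraries stood well above WT, with log2 folds of 0.89 and 1.01, in a gene that shares reads with close copies. *Zfp654*, without the KRAB pattern, was at 12.8, 25.9 and 24.8 FPKM, log2 folds of 0.96 and 0.90. Both genes were thus higher than WT by a similar amount in each treated library. *Zfp655* was at 23.9 FPKM in WT, 32.3 FPKM in Tam and 42.1 FPKM in DoxTam, where its log2 fold was 0.79. The lower members were *Zfp931* (-0.71) and *Zfp653*, which was at 4.44 FPKM in WT, 3.90 FPKM in Tam and 2.52 FPKM in DoxTam (-0.63). Next to the threshold stood *Zfp945* (0.59) inside and *Zfp759* (0.58) outside among higher genes, and *Zfp653* inside and *Zfp688* (-0.56) outside among lower ones.

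The dependence on GC content was steeper here. The median log2 fold of all genes was 0.34 in the decile poorest in G and C and -0.34 in the richest, and the 47 members in the poorest had a median of 0.40. With the trend subtracted 2 members were higher, *Zfp764* (0.62, with 27.6% of its stretches shared) and *Zfp936* (0.61), 1 was lower (*Zfp931*, -1.17), and the median was 0.019. Of all genes 2.04% were then higher and 2.25% lower, so that the members' share of 1.71% higher was not above that of all genes. Of the 13 higher members *Zfp936* alone was still past 1.5-fold.

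**Figure D1:**
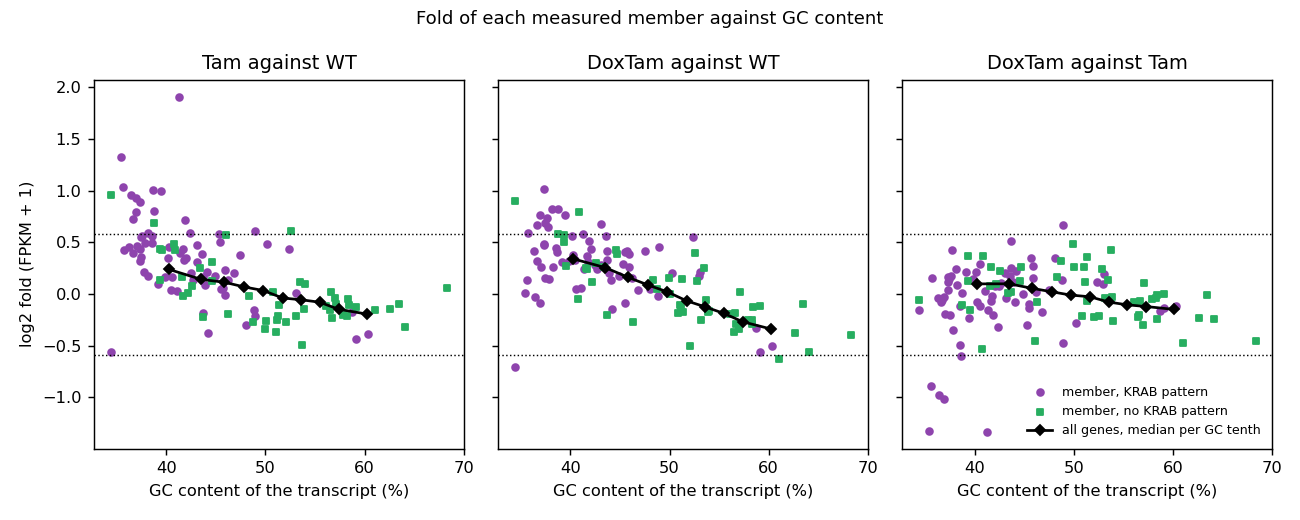
Log2 fold (y axis, FPKM + 1) of each measured member against the GC content of its transcript (x axis, percent), for members with the KRAB pattern (purple circles) and without it (green squares), with the median of all genes in each decile of GC content (black line) and 1.5-fold as dotted lines. Members and all genes fall from left to right against WT, and in DoxTam against Tam 6 members of low GC content lie below the lower dotted line although the black line there is above 0.

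Both comparisons use the same WT library. Their calls are therefore not independent, and the levels are given side by side. *Zfp709* was at 1.94 FPKM in WT, 4.87 FPKM in Tam and 3.99 FPKM in DoxTam. *Zfp953* was at 3.10, 6.10 and 5.94 FPKM, and *Zfp738* at 3.31, 6.54 and 6.62 FPKM. In these genes the treated libraries lay close together and apart from WT. *Zfp958* was at 3.33, 5.33 and 5.98 FPKM, with log2 folds of 0.55 in Tam and 0.69 in DoxTam, so that it lay on both sides of the threshold with similar levels. *Zfp672* was at 3.17, 5.36 and 4.50 FPKM, with 0.61 in Tam and 0.40 in DoxTam. *Zfp879* and *Zfp964*, higher in Tam, were under the minimum in DoxTam and WT, so they were counted only through Tam. *Zfp879* rested on about 12 fragments in WT and 17 in Tam, and *Zfp964* on about 9 and 10. Their FPKM ratios of Tam to WT were 2.76 (1.32 to 6.73) and 2.49 (0.840 to 6.40), the last interval spanning 1.

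**Figure D2:**
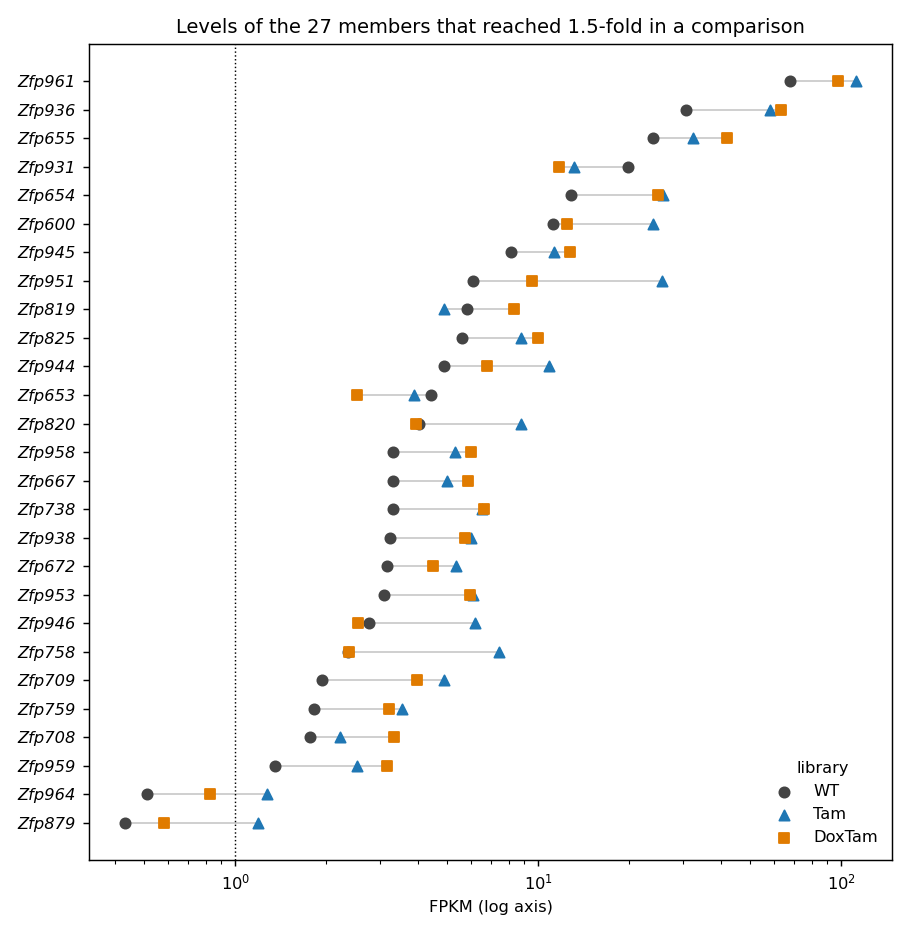
FPKM (x axis, log axis) in WT (circles), Tam (triangles) and DoxTam (squares) of the 27 members that reached 1.5-fold in any of the 3 comparisons, ordered by WT level, with 1 point per library, a grey line from the lowest to the highest and 1 FPKM dotted. *Zfp951*, *Zfp600*, *Zfp820*, *Zfp946* and *Zfp758* have Tam apart from WT and DoxTam, whose points nearly coincide for *Zfp758* and *Zfp820*, whereas both treated libraries lie together above WT for *Zfp654* and *Zfp738*.

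The comparison of the treated libraries with each other does not use WT and sets the library labelled with doxycycline beside the one labelled without it. Of 121 members measured, 1 was higher in DoxTam and 6 were lower, which is 0.826% and 4.96% of the members, beside 2.09% of 12647 genes higher, 5.74% lower and 7.83% either way. The number of lower members is thus near that over all genes. The median log2 fold of the members was -0.011, and rescaling to the same total turned it to 0.18, with a split of 5 higher and 5 lower beside 6.02% of all genes higher and 4.1% lower. The median of all genes was -0.019 and turned to 0.17. Among Zfp1 to Zfp599, 1 of 172 measured genes was higher and 0 were lower.

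The 6 lower members were *Zfp951* (log2 fold -1.33), *Zfp758* (-1.32), *Zfp946* (-1.01), *Zfp820* (-0.98), *Zfp600* (-0.89) and *Zfp944* (-0.60). All 6 carry the KRAB pattern. The comparison of Tam with WT shares the Tam library with this one. *Zfp946* was at 2.77 FPKM in WT, 6.17 FPKM in Tam and 2.55 FPKM in DoxTam, and *Zfp820* was at 4.04, 8.78 and 3.96 FPKM. In *Zfp758*, *Zfp820* and *Zfp946* WT and DoxTam were level as deposited, and Tam stood alone above them. With the GC trend subtracted, their log2 folds of DoxTam against WT were -0.44, -0.45 and -0.50. After rescaling to the same total they were 0.27, 0.27 and 0.18. The intervals of the ratio of DoxTam to Tam, again from approximate fragment numbers, ran from 0.222 to 0.444 for *Zfp758*, from 0.287 to 0.483 for *Zfp951* and from 0.493 to 0.789 for *Zfp944*. All genes of the decile poorest in G and C had a median log2 fold of 0.10 in this comparison, the opposite sign, and with the trend subtracted the 6 values ran from -0.73 for *Zfp944* to -1.46 for *Zfp951*. Under other scalings *Zfp944* fell short of 1.5-fold (-0.42 to -0.58), while the other 5 kept a difference past it. Reads of *Zfp600* cannot be told from those of its copies. Among 8 trophectoderm markers, 2 were lower in DoxTam than in Tam and 0 were higher. These were *Cdx2* (0.639 FPKM in WT, 2.82 FPKM in Tam and 0.128 FPKM in DoxTam) and *Gata3* (0.098, 1.77 and 0.213 FPKM). *Eomes* (2.91, 4.08 and 5.43 FPKM) and *Krt8* (5.11, 5.98 and 7.25 FPKM) had their highest level in DoxTam and *Tfap2c* (6.55, 4.46 and 3.70 FPKM) in WT, and the part of these markers in the result was not tested. The higher member was *Zfp819*, a KRAB zinc finger gene whose protein binds TRIM28 and represses retrotransposons in pluripotent cells, which was at 5.82 FPKM in WT, 4.89 FPKM in Tam and 8.34 FPKM in DoxTam (0.67).

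Sequences of these 6 genes were set side by side because they had their highest level in the same library. Their predicted proteins fall apart into *Zfp951*, which is 40.7% to 42.9% identical to each of the others, and the remaining 5, which are 65.2% to 71.1% identical to one another. The 250 bases before each start in the RefSeq table (build GRCm38.p6), which matched 118 members, were searched for 5 motifs that were chosen after the genes were known. The E-box CACGTG, read on both strands, was present in 6.86% of 27025 genes, in 14 of the 118 members (11.9%) and in 4 of the 6 genes. All 4 lie in the chromosome 17 cluster described below, where 7 of 11 genes (63.6%) had an E-box. *Zfp758* and *Zfp944* were counted for the same E-box. The other motifs were the GC box GGGCGG (35.4% of all genes, 46.6% of members, 3 of the 6), the CCAAT box (37.5%, 56.8%, 3 of the 6), the TATA box TATAAA (14.3%, 7.63%, 1 of the 6) and the octamer ATGCAAAT, the classic motif of POU factors (1.81%, 1.69%, 0 of the 6). *Zfp944* and *Zfp758* start 63 bases apart on opposite strands, and the 62 bases between their starts (chr17:22361401-22361462, plus strand) hold an E-box, shown in capitals.
between *Zfp944* and *Zfp758*: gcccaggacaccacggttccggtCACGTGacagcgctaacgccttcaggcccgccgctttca
The same 62 letters lie, without a substitution, between *Zfp942* and *Zfp943*, the only other members that start within 1000 bases of each other on opposite strands (chr17:21962465-21962558, plus strand).
between *Zfp942* and *Zfp943*: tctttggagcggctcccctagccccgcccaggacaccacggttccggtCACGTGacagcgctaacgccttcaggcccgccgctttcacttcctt

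The genes on either side of these matching runs had different values. *Zfp942* was at 6.98 FPKM in WT, 9.79 FPKM in Tam and 10.1 FPKM in DoxTam, and *Zfp943* at 2.52, 3.85 and 3.24 FPKM. Neither reached 1.5-fold in any comparison. The ratio of DoxTam to Tam was 1.03 (0.843 to 1.26) for *Zfp942* and 0.841 (0.577 to 1.21) for *Zfp943*, above the intervals of *Zfp758* and, for *Zfp942*, above that of *Zfp944*. The interval of *Zfp943* overlaps that of *Zfp944* (0.493 to 0.789). The part of the shared stretch in these values was not tested. The share of 50-base stretches found in other genes was 9.40% for *Zfp944*, 6.19% for *Zfp758*, 8.99% for *Zfp942* and 3.01% for *Zfp943*.

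The promoters of *Zfp946* (chr17:22423952-22424201, plus strand) and *Zfp820* (chr17:21845760-21846009, minus strand) share a run of 16 bases, ggggaaccacgtgacc, around their E-box, which begins 10 and 119 bases before the start. They are shown for this shared run, with the E-box in capitals.
*Zfp946*: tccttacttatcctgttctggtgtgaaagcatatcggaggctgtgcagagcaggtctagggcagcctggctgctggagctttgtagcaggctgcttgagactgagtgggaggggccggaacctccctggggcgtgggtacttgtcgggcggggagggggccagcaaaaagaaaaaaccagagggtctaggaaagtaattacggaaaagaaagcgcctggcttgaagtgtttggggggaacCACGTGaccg
*Zfp820*: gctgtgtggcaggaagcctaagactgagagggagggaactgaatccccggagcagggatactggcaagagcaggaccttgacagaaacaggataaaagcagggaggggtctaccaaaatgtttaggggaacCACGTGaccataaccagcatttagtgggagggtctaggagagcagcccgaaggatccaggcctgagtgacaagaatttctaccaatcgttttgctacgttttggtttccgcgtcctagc
The promoters of *Zfp951* (chr5:104860069-104860318, minus strand) and *Zfp600* (chr4:146156577-146156826, plus strand) hold no E-box in these windows, and *Zfp951*, which had the largest difference, is shown for contrast.
*Zfp951*: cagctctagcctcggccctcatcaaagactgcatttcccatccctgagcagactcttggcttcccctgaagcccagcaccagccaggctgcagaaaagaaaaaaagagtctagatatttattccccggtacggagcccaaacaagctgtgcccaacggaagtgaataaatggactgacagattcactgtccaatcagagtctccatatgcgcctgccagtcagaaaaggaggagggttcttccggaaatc
These matches describe letters in a window and not sites that a factor was seen to bind.

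Members lie in clusters. With neighbouring members at most 1 Mb apart and at least 4 members to a cluster, 10 clusters held 62 members, and the other 76 lay outside. Within clusters 11 of 57 measured members were higher in Tam and 7 of 55 in DoxTam, with median log2 folds of 0.31 and 0.27. Outside them 7 of 62 and 6 of 62 were higher, with medians of 0.12 and 0.15. Over all genes the shares higher were 6.98% in Tam and 4.12% in DoxTam. With the GC trend subtracted the medians in clusters were 0.15 and 0.04, and outside them 0.04 and -0.00098. The members in clusters also had the lower GC content, 43.1% against 45.7%.

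The largest cluster lies on chromosome 17 (mm9, 21520711 to 23004101) and runs from *Zfp677* to *Zfp945*. It has 11 members, all with the KRAB pattern. Of 10 measured in Tam, 4 were higher (*Zfp758*, *Zfp944*, *Zfp820* and *Zfp946*), all 10 lay above 0, and the median log2 fold was 0.48. Of 9 measured in DoxTam, 1 was higher, *Zfp945*, at 8.14 FPKM in WT, 11.3 FPKM in Tam and 12.7 FPKM in DoxTam, and the median was 0.27. With the GC trend subtracted the medians were 0.19 in Tam and -0.13 in DoxTam, and *Zfp945* was at 0.15. Between the treated libraries 4 of 10 were lower in DoxTam and the median was -0.34, which was -0.21 to -0.32 under the other scalings tried, with 3 lower. Over all genes 5.74% were lower, and 4.1% to 5.43% under those scalings. *Zfp948*, at 7.16, 7.36 and 9.25 FPKM, and *Zfp760*, at 7.61, 8.71 and 9.31 FPKM, lay in the same cluster with their highest level in DoxTam. The cluster was thus not uniform. An E-box was found before 7 of the 11 genes, among them *Zfp942*, *Zfp943* and *Zfp947*, which did not reach 1.5-fold on the FPKM + 1 scale. *Zfp947* was at 0.985 FPKM in WT, 1.80 FPKM in Tam and 0.987 FPKM in DoxTam, so that Tam stood alone there as well, with FPKM ratios of 1.82 (1.08 to 3.08) for Tam to WT and 0.549 (0.282 to 0.973) for DoxTam to Tam. The other 12 genes within its borders, 10 of them measured, had a median log2 fold of 0.34 in Tam and 0.42 in DoxTam.

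**Figure D3:**
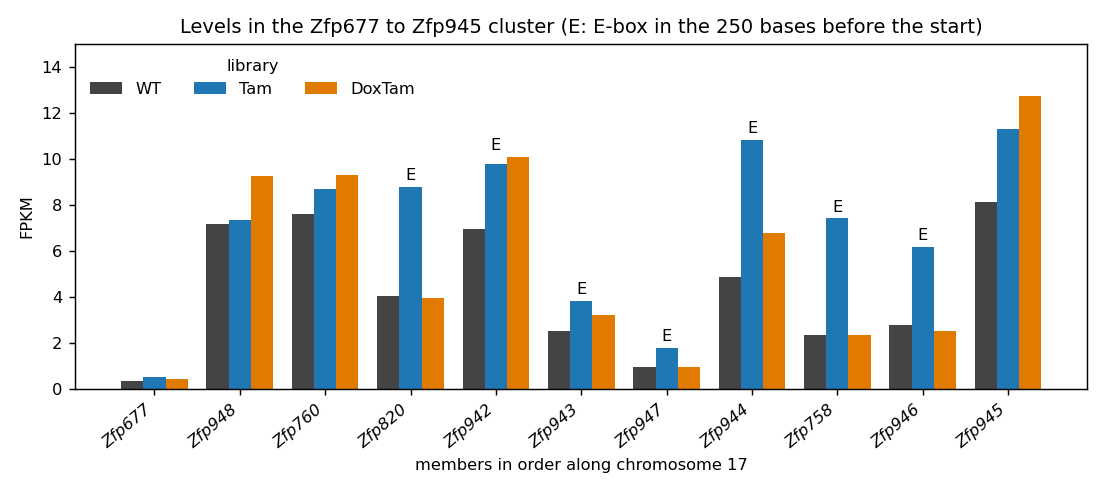
FPKM (y axis) in WT, Tam and DoxTam (bars, 1 library each) for the 11 members of the chromosome 17 cluster in their order along the chromosome (x axis), with E above genes that have an E-box in the 250 bases before the start. *Zfp820*, *Zfp944*, *Zfp758* and *Zfp946*, and at lower levels *Zfp943*, *Zfp947* and *Zfp677*, are highest in Tam, whereas *Zfp948*, *Zfp760*, *Zfp942* and *Zfp945* are highest in DoxTam.

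A cluster of 6 members on chromosome 13 (67139529 to 67784449), from *Zfp712* to *Zfp738*, had the highest medians. Of 5 measured members 3 were higher in each comparison with WT, with median log2 folds of 0.69 in Tam and 0.65 in DoxTam, and 0 differed between the treated libraries. This cluster had a median GC content of 38.2%. With the GC trend subtracted its medians were 0.43 and 0.25 and no member reached 1.5-fold, the highest being *Zfp738* (0.55 in Tam and 0.44 in DoxTam). Other genes of that region lay in the same direction, with 6 of 12 measured higher in Tam and 4 of 11 in DoxTam. Over all genes these shares were 6.98% and 4.12%. This region is known for the *Rslcan* genes, regulators of sex-limited liver expression. On chromosome 8 (74405966 to 74494232) *Zfp709* and *Zfp961* of 4 members were higher in Tam. *Zfp961*, the member with the highest level, was at 67.9 FPKM in WT, 112 FPKM in Tam and 97.3 FPKM in DoxTam, a log2 fold of 0.71 and 0.51. The cluster around *Zfp819* and *Zfp936* on chromosome 7 (50432957 to 50873649) held 5 members, of which *Zfp936* was higher in both comparisons, and all 5 lay above 0 between DoxTam and Tam.

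Clusters of high GC content stood lower. The 9 members on chromosome 7 from *Zfp771* to *Zfp646* (134388039 to 135034484) had a median GC content of 56.6%, 0 members at 1.5-fold, and median log2 folds of -0.05 in Tam and -0.18 in DoxTam, which were 0.07 and 0.13 after rescaling to the same total. The medians of all genes were then 0.15 and 0.32. With the GC trend subtracted those of the cluster were 0.08 and 0.04. The chromosome 6 cluster (47769264 to 48573226), which holds *Zfp746*, the gene of PARIS, a substrate of parkin, had medians of -0.12 and -0.17, which turned to 0.0083 and 0.12 after that rescaling. With the GC trend subtracted they were 0.03 and 0.0094. *Zfp746* was at 5.38 FPKM in WT, 4.88 FPKM in Tam and 4.57 FPKM in DoxTam. With a gap of at most 500 kb there were 9 clusters with 56 members, and with 2 Mb there were 11 clusters with 71 members.

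**Figure D4:**
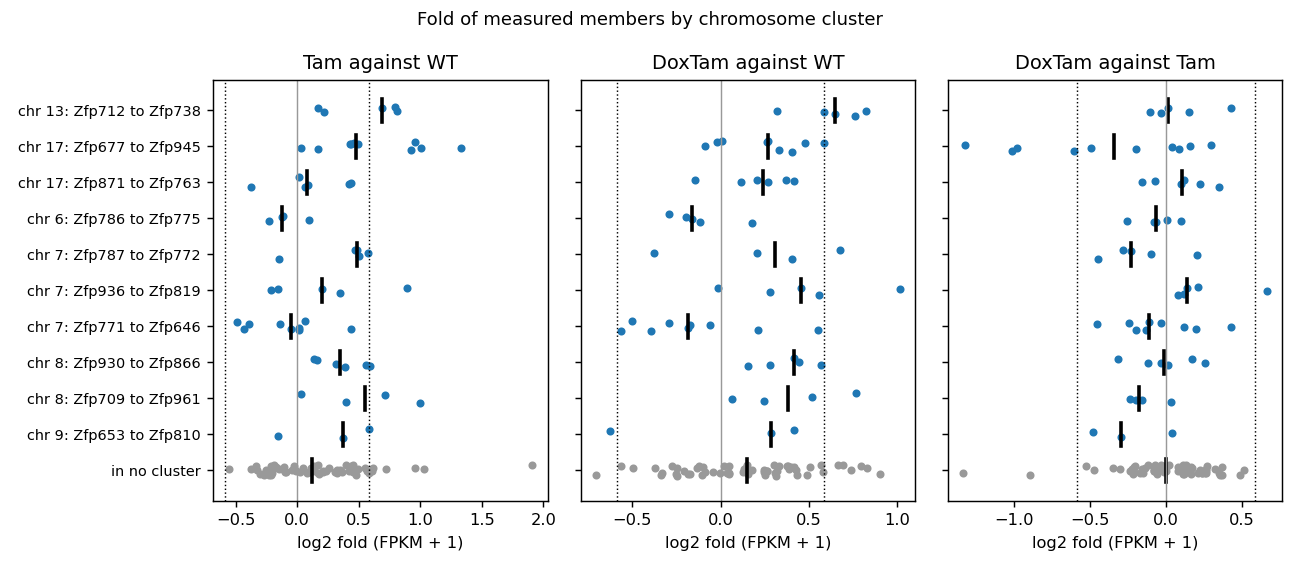
Log2 fold (x axis, FPKM + 1) of each measured member (points), by chromosome cluster (rows, named by first and last member), with the cluster median as a black bar, members of no cluster in grey and 1.5-fold dotted. The chromosome 13 cluster has the highest medians against WT (0.69 and 0.65), and among the clusters the first on chromosome 17 reaches furthest to the left between DoxTam and Tam, with a median of -0.34.

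Members with and without the KRAB pattern differed in their folds and in their GC content. Of 70 measured members with the pattern 15 were higher in Tam, against 3 of 49 without it, and in DoxTam the numbers were 11 of 68 and 2 of 49. Over all genes 6.98% were higher in Tam and 4.12% in DoxTam. The median log2 folds were 0.37 and -0.09 in Tam and 0.31 and -0.10 in DoxTam, and the negative medians turned to 0.03 and 0.24 after rescaling to the same total. The medians of all genes were then 0.15 in Tam and 0.32 in DoxTam. The median GC content was 41.7% with the pattern and 51.3% without. With the GC trend subtracted the medians were 0.15 and 0.0029 in Tam, and 0.02 and 0.0094 in DoxTam. Among members of low GC content (under the members' median), the median in Tam was 0.44 for 49 members with the pattern and 0.26 for 13 without, and in DoxTam it was 0.37 for 47 and 0.27 for 13. The pattern and the GC content cannot be fully separated in a group in which most KRAB genes are poor in G and C. The number of fingers divided the members less. Of 71 measured members with 10 or more fingers 14 were higher in Tam, with a median of 0.21, of 43 with 1 to 9 fingers 4 were, with a median of 0.09, and of 5 without a finger of the pattern 0 were. Median GC content was 41.7% with 10 or more fingers and 48.8% with 1 to 9. With the GC trend subtracted their medians in Tam were 0.09 and 0.08. None of these divisions was tested, since members of 1 library are not replicates.

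**Figure D5:**
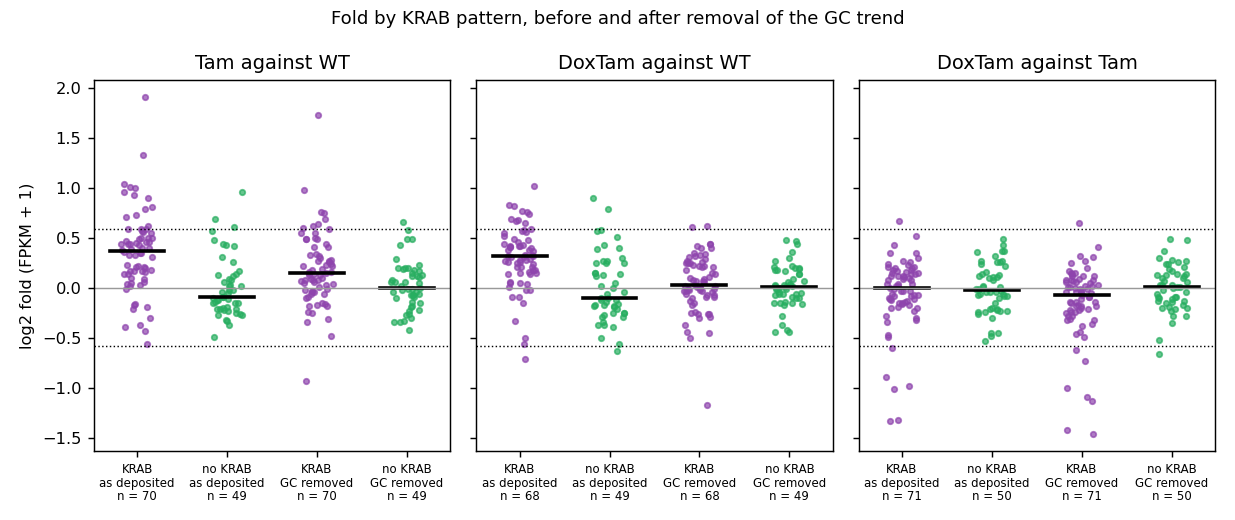
Log2 fold (y axis, FPKM + 1) of measured members with the KRAB pattern (purple) and without it (green), as deposited and with the GC trend subtracted, with the median as a black bar, n under each column and 1.5-fold dotted. In Tam the medians of 0.37 and -0.09 move to 0.15 and 0.0029, and in DoxTam those of 0.31 and -0.10 move to 0.02 and 0.0094.

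Members with a described role mostly stayed within 1.5-fold. *Zfp809* was at 36.6 FPKM in WT, 55.4 FPKM in Tam and 44.9 FPKM in DoxTam. *Zfp932*, a KRAB zinc finger gene that acts on endogenous retroviruses, was at 5.30, 6.88 and 7.84 FPKM, with uncertain reads. *Zfp706*, whose loss holds ESCs in self-renewal, was at 24.4, 29.3 and 29.5 FPKM. The levels of these 3 genes were lowest in WT. With the GC trend subtracted, their log2 folds in Tam were 0.49, 0.03 and 0.13 in the order named. In DoxTam these were 0.10, 0.08 and 0.016. For *Zfp809* the FPKM ratio of Tam to WT was 1.51 (1.32 to 1.73), and on the FPKM + 1 scale it fell just short of 1.5-fold. *Zfp622* (26.8, 22.4 and 24.3 FPKM), *Zfp830*, a gene of genome stability in early embryos (20.9, 17.8 and 18.0 FPKM), *Zfp652*, a repressor gene (25.6, 22.3 and 21.0 FPKM), and *Zfp644*, a partner of the histone methyltransferases G9a and GLP (11.2, 12.7 and 13.4 FPKM), also stayed within it. *Zfp750*, a gene of epidermal differentiation whose locus overlaps *Tbcd* and *B3gntl1*, was at 4.59, 3.43 and 5.21 FPKM.

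The genes of the machinery that KRAB zinc finger proteins use followed the scaling. Of a list of 40 co-repressor genes 39 were found and 38 measured, of which 0 were higher and 0 lower in Tam. In DoxTam 1 was higher, *Atf7ip2* (0.63, at 10.5 FPKM in WT and 16.8 FPKM in DoxTam), and 0 were lower. The fold of *Atf7ip2* was 0.31 with the GC trend subtracted. The medians of the list were -0.02 and -0.10, and they turned to 0.12 and 0.26 after rescaling to the same total, when 2 were higher in Tam and 9 in DoxTam. Under that rescaling the medians of all genes were 0.15 and 0.32, and 10.8% and 22.1% of all genes were higher. *Trim28* was at 468 FPKM in WT, 399 FPKM in Tam and 402 FPKM in DoxTam, and *Setdb1* at 39.1, 44.0 and 39.1 FPKM. In a list of 24 other KRAB zinc finger and imprint genes, 3 of 21 measured were higher in Tam (*Zfp456*, *Zfp459* and *Zfp97*). In DoxTam 1 of 20 was higher (*Zfp459*), and 0 were lower in either. Without rescaling, 6.98% of all genes were higher in Tam and 4.12% in DoxTam. With the GC trend subtracted, *Zfp456*, *Zfp459* and *Zfp97* were at 0.40, 0.69 and 0.33 in Tam, and *Zfp459* was at 0.77 in DoxTam. *Zfp97* is the closest copy of *Zfp960*, a member that shares 84.5% of its stretches with other genes. *Zfp57*, which protects imprints, was at 298, 289 and 328 FPKM. In bulk samples fewer cells of a type and less RNA per cell cannot be told apart.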

How the data were processed

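RNA-seq levels of 3 libraries (1 per condition, grouped by the submitters' labels) were taken from 2 tables of FPKM values, which the authors deposited after alignment with TopHat and Bowtie to mm9 and quantification with Cufflinks 2.0.0, by the submitters' processing notes. The kit is a stranded one, and the strand setting of the counting is not stated in those sources. Deposited fold, test statistic, p and q columns compare libraries and were not used. No column was left without a library (0). WT levels differed by over 1% between the tables for 2 genes, 0 of them members, and 27 gene names differed.

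Folds are log2((FPKM + 1)/(FPKM + 1)) without further normalization, called at 1.5-fold among genes at 1 FPKM or more in 1 of the 2 libraries. No test was made. The trend over GC content was subtracted by lowess (span 0.2, statsmodels 0.14.6) over the longest coding transcript of each gene in GENCODE vM1, on the same build as mm9, which 19255 genes had. Fragments were estimated from the lowest FPKM of genes with 1 transcript, and ratio intervals are exact (Clopper-Pearson, 95%) and cover counting error only. They hold if 1 transcript carries a gene, so they are approximate. KRAB and C2H2 (finger) patterns were searched in translated coding sequences. Promoters came from RefSeq (GRCm38.p6) and mm9 coordinates from the tables, and no coordinate was converted. Python 3.11.15 and pandas 2.3.3 were used, and the steps were tested on simulated data. Members and lists were chosen with earlier results of these data known. The promoter motifs were chosen after the genes were seen. Named members are the 8 highest in WT, the 8 highest and 8 lowest folds of each comparison, the 4 largest differences each way between treated libraries, the extremes of each cluster, those next to the threshold, members with a known role, and genes of the lists at 1.5-fold. Other members named in the chromosome 17 cluster, among the calls and among the overlapping loci, and *Krt8*, *Col3a1*, *Postn*, *Twist2*, *Trim28*, *Setdb1* and *Zfp57*, were chosen after their values were seen.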

Additional observations from a re-analysis of the deposited data

How the results depend on the processing

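With 1 library per condition no replicate could be left out. No paired analysis was possible because each condition has 1 library and no result comes from a test. Counts of higher and lower members (18 and 0 in Tam, 13 and 2 in DoxTam, 1 and 6 in DoxTam against Tam) followed the pseudocount. At 0.1 FPKM they were 28 and 2, 20 and 5, and 4 and 11 in the same order. The shares of all genes were then 10.1% and 5.96%, 6.92% and 9.25%, and 3.71% and 9.07%. At 5 FPKM 8 were higher in Tam, 3 higher and 0 lower in DoxTam, and 0 higher in DoxTam against Tam. The shares of all genes were then 2.33% higher in Tam, 1.42% higher and 2.12% lower in DoxTam, and 0.593% higher in DoxTam against Tam. Rescaling to the same total moved the median of all genes by 0.13 in Tam, 0.32 in DoxTam and 0.19 between them. It gave 30 members higher in Tam, 51 higher and 0 lower in DoxTam and 5 higher in DoxTam against Tam. Of all genes, 10.8%, 22.1% and 6.02% were then higher in the same order. The member medians were 0.29, 0.50 and 0.18, the last a change of sign from -0.011. Without small RNA genes in the total, 15 members were higher and 1 was lower in Tam, 12 and 2 in DoxTam, and 1 and 5 between them. The shares of all genes were then 6.0% and 4.47%, 4.05% and 5.85%, and 2.51% and 5.17%. With the GC trend removed the counts were 10 and 1 in Tam and 2 and 1 in DoxTam, where the median was 0.019. In DoxTam against Tam they were 1 and 8, beside 1.49% and 4.68% of all genes. *Zfp873* (-0.66) and *Zfp947* (-0.62) were among the lower members there, but not without this step. At 2-fold 4 were higher in Tam, 1 higher and 0 lower in DoxTam, and 0 higher and 3 lower in DoxTam against Tam. The shares of all genes were then 2.13% higher in Tam, 0.711% higher and 1.04% lower in DoxTam, and 0.459% higher and 1.98% lower between them. The lower members in DoxTam were 1 with a filter at 5 FPKM and, in alternatives chosen after seeing the data, 1 without members sharing over 10% of stretches and 1 without members whose locus overlaps another. Of all genes 5.54% were lower with that filter and 5.78% in the alternatives. No called value of the 64 named members changed sign. Their calls were lost most often with a pseudocount of 5 FPKM (20 values) and with the GC trend removed (18 values). At these depths a member near 1 FPKM rests on few fragments.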
